A study of Mus musculus with 3 samples.

Results

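The Ighv rows are the variable segments of the immunoglobulin heavy chain. A developing B cell joins 1 variable (V), 1 diversity (D) and 1 joining (J) segment into the exon that encodes the antigen-binding part of its antibody, and it then keeps that choice, so the segment a cell transcribes is a record of its own rearrangement and of the clone it belongs to. The heavy chain pairs with a kappa or lambda light chain, whose V segment is chosen separately. B cells carry the product as a receptor, and plasma cells, the antibody-secreting end stage of the lineage, transcribe it at a far higher level. Members were all gene rows whose name begins with Ighv, 185 of the 32285 gene rows, with 183 different names, since Ighv5-8 and Ighv1-13 are each listed under a pair of gene IDs. All 185 were found in GENCODE vM21 on mm10, where 113 are annotated as V genes, 70 as V pseudogenes and 2 as IG_LV genes. They lie in a row on chromosome 12 between 113572927 and 116010093, all on the minus strand, at 143 to 2580 kb from the J segment Ighj1, and fall into 16 families by name.

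Spleen cells depleted of T cells with CD3 beads were profiled in 3 single-cell libraries (10x Genomics, 5′ chemistry) that count each captured RNA molecule by its unique molecular identifier (UMI). The control library held C57Bl/6 mice, males given sham minipumps for 2 weeks from an age of 10 weeks, together with females. The Ang II library held C57Bl/6 mice whose minipumps released angiotensin II over the same 2 weeks, with placebo or with 2HOBA (2-hydroxybenzylamine, a scavenger of reactive lipid aldehydes). The B6.SLE123 library held mice of a lupus-prone strain that carries 3 susceptibility loci of NZM origin on the C57BL/6 background, treated for 6 weeks from an age of 7 weeks either with 2HOBA or without it. The study's methods give these mice, and the C57Bl/6 controls matched to them, as female. All mice were 12 to 14 weeks old, and cells of 3 mice were pooled for each condition. Each library carried 6 hashtag antibodies, C0301 to C0306, whose link to a condition or a mouse is not given in the sources used here, so conditions within a library were not compared and hashtags are given by number. The same hashtag number in different libraries does not mark the same mice. The control library mixes the sexes, and strain, library and agent cannot be told apart for any difference between libraries. Because each group is 1 library, differences were not tested, and every interval is an exact 95% interval that covers counting error only.

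The libraries held 44146350, 59043555 and 63516694 gene UMIs in 18218, 16062 and 20691 barcodes (control, Ang II and B6.SLE123, the order used throughout), and 15700, 14023 and 16708 cells were kept. Barcodes shared by a pair of libraries numbered 415 to 496. B cells had 2 or more UMIs of Cd79a, a chain of the B cell receptor's signalling unit, and numbered 12956, 11356 and 12772. Plasma cells had 3 or more UMIs of Jchain, the joining chain of IgM and IgA polymers, and 2 or more over Sdc1, Tnfrsf17, Prdm1 and Derl3. They numbered 16, 35 and 290, and 16, 35 and 262 of them, which also met the B cell rule, were counted as plasma cells only. Ms4a1 (CD20), a surface protein of B cells that plasma cells lose, was at 1159, 1093 and 1053 CPM (UMIs scaled to a common total per library and class) in B cells and at 36.4, 127.8 and 103.8 CPM in plasma cells. The 8 plasma cell markers summed to 659, 571 and 1157 CPM in B cells and to 37002, 46481 and 35314 in plasma cells. The 4 T cell markers were at 1.36, 9.03 and 2.14 CPM in B cells. The 4 neutrophil markers were at 848, 1045 and 1409 CPM there and the erythroid markers at 11.4, 88.8 and 113.1 CPM. NK cell markers were at 0, 0 and 207.6 CPM in plasma cells. The part of these other cell types in the results was not tested.

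The sequences below are of Ighv11-2, Ighv11-1 and 3 pseudogene-annotated rows, called mostly in B cells of the B6.SLE123 library. They are spliced germline sequences of GENCODE vM21 on the minus strand of chromosome 12 (mm10), with bases counted from 1 at the A of the start codon. The first pair is Ighv11-2, at chr12:114048241-114048812, and its neighbour Ighv11-1, at chr12:113981879-113982341. They were identical at 349 of 353 bases. Bases 63 to 341 are shown, and capitals mark the 4 that differ.
Ighv11-2: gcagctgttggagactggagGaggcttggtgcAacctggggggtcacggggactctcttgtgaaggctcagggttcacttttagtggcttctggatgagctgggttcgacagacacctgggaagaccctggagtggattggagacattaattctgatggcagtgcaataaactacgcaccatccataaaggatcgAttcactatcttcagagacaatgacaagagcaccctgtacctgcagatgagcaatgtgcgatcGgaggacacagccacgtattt
Ighv11-1: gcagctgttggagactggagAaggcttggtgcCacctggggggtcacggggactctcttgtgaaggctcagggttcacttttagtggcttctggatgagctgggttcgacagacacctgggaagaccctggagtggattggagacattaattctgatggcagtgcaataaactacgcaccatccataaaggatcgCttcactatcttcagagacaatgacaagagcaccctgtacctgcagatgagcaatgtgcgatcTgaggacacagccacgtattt
The next 3 are annotated as pseudogenes but were the top segment of B cells in the B6.SLE123 library. Bases 1 to 240 are shown, and capitals mark the first stop codon in the reading frame of the start codon. In Ighv1-14, at chr12:114646572-114647056, it was codon 5, and the closest annotated V gene was Ighv1-85, identical at 313 of 351 bases. In Ighv1-83, at chr12:115963817-115964250, it was codon 20, and Ighv1-77 was the closest, identical at 325 of 351 bases. In Ighv1-62, at chr12:115371986-115372433, it was codon 56, and Ighv1-55 was the closest, identical at 340 of 350 bases.
Ighv1-14: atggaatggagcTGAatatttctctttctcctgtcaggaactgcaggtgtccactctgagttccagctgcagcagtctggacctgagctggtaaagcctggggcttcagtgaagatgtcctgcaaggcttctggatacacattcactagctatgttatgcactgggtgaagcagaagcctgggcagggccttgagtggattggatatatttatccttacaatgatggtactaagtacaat
Ighv1-83: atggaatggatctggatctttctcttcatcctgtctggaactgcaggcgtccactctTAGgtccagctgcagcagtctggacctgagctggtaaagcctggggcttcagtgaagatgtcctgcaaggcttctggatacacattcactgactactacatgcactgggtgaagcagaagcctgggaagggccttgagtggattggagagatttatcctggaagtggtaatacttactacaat
Ighv1-62: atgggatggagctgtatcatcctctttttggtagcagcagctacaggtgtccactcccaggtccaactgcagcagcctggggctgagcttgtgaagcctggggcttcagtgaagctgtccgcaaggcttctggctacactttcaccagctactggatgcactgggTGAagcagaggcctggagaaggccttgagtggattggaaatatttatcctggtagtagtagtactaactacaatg
These are reference bases. The deposited counts do not hold the bases of the transcripts themselves, so whether the B6.SLE123 transcripts carry the same stop codons was not tested.

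How often a segment could be read was compared first. At least 1 Ighv UMI was found in 80.6% (79.9% to 81.3%), 94.4% (94.0% to 94.8%) and 85.0% (84.4% to 85.6%) of B cells, at a median depth of 1797, 2777 and 1967 UMIs. In neutrophils (10 or more UMIs of S100a8 and none of Cd79a), which do not rearrange these genes, the share was 7.28%, 14.3% and 24.6% at a median depth of 1196, 2215 and 1862 UMIs, which gives the background level of Ighv UMIs, highest in the B6.SLE123 library. After thinning of each cell to 1000 UMIs the shares were 63.5%, 77.8% and 67.7% in B cells and 4.86%, 4.90% and 10.6% in neutrophils. At the same depth the Ang II library therefore still had the highest share of B cells with an Ighv UMI. Thinning left out 689, 429 and 1079 B cells under 1000 UMIs.

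A cell's segment was called as the Ighv row with the most UMIs, given 2 or more UMIs and no tie. This called 7136 (55.1%), 9364 (82.5%) and 7424 (58.1%) of the B cells, against 0.373%, 0.516% and 3.08% of neutrophils. The top segment held a median of 100% of a called B cell's Ighv UMIs, and a second segment had 2 or more UMIs in 4.88%, 9.30% and 7.48%. Shares of use below are shares of called cells. They are used in place of summed UMIs because single cells can hold most of a segment's UMIs. In the control library 1 B cell held 76.3% of the 4436 UMIs of Ighv8-8, the top segment of 217 B cells, and 1 cell held 88.8% of the 1692 UMIs of Ighv2-6. Of the 185 rows, 141 had a UMI in a B cell of any library, 116 were the top segment of at least 1 B cell, and 87 were the top segment of fewer than 10 B cells over the 3 libraries.

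C57Bl/6 B cells used many segments, none of them above 6% of cells over a library. In the control library 103 segments were in use, 36 of them in 1% or more of called B cells, and the 10 most used held 34.5%. Ighv1-26, in the middle of the Ighv1 (J558) family, led with 322 cells (4.51%). Ighv3-6 followed at 4.15%, Ighv9-3 at 4.04%, Ighv1-64 at 3.83%, Ighv1-82 at 3.46%, Ighv1-81 at 3.18%, Ighv8-8 at 3.04%, Ighv6-3 at 2.80%, Ighv1-9 at 2.75% and Ighv1-80 at 2.72%. Neighbours in that order lay within each other's intervals. Ighv5-2, one of the segments nearest to the J segments, was called in 5, 6 and 6 B cells. Ighv10-1 and Ighv10-3, of a family known from antibodies to DNA, had 1.303% and 1.415% of control B cells. The effective number of segments, the inverse of the probability that a pair of cells share their segment, was 47.55 for control B cells, with hashtags from 45.9 to 50.4, and 47.4 for Ang II B cells, with hashtags from 45.4 to 49.2.

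**Figure D1:**
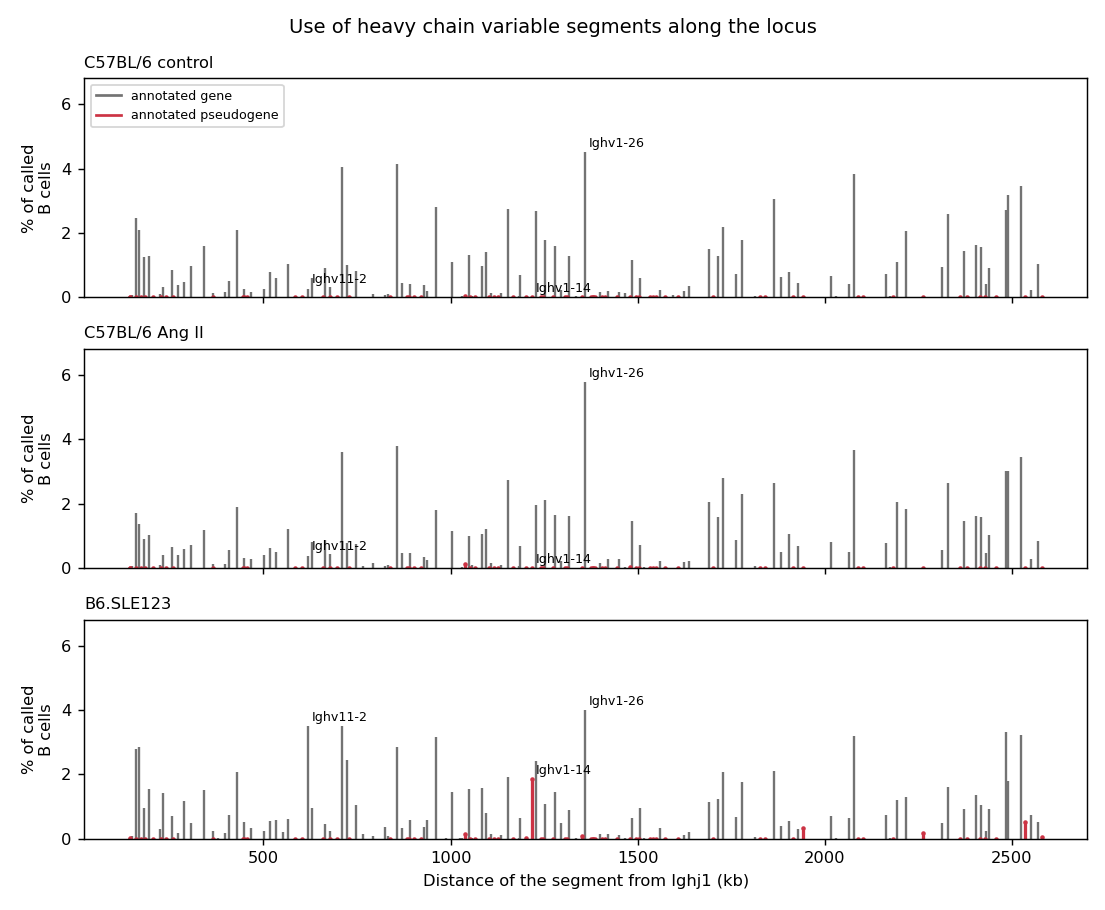
Share of called B cells (y axis, %) that used each of the 185 Ighv rows, placed by distance from Ighj1 in kb (x axis), in the 3 libraries; grey lines are annotated genes and red lines annotated pseudogenes. Use is spread along the locus in every library, Ighv1-26 is at 4.51%, 5.77% and 3.99%, and red lines rise above the base line in the B6.SLE123 panel, where Ighv1-14 reached 1.85% and Ighv11-2 3.50%.

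The Ighv1 family, the largest and the farthest from the J segments (922 to 2580 kb from Ighj1, 93 rows), held 55.9% (54.8% to 57.1%), 61.4% (60.4% to 62.4%) and 51.3% (50.2% to 52.5%) of called B cells. Its 6 Ang II hashtags ranged from 59.5% to 64.0% and the 6 control hashtags from 53.6% to 58.5%, so they did not overlap. This was at unequal depth, and ranges by hashtag were not computed after thinning. As a background, all 6 Ang II hashtags were above all 6 control hashtags in CPM for 7.64% of all genes. The Ighv1 share moved with the reads needed for a call, to 42.85%, 54.5% and 42.0% when 5 UMIs were required. It was 52.95%, 55.95% and 46.0% after thinning of each cell to 1000 UMIs. The Ang II library was the highest and the B6.SLE123 library the lowest each time, but by summed UMIs the shares were 47.4%, 53.5% and 50.1%, with control the lowest. The J-proximal families Ighv5 (7183) and Ighv2 (Q52) were used by 7.88% and 7.09% of control B cells. Ang II B cells had 6.59% and 5.60%, and B6.SLE123 B cells 9.59% and 8.22%. Ighv3 held 5.395%, 4.998% and 4.61%, Ighv9 5.73%, 5.37% and 4.51%, and Ighv8 5.62%, 4.73% and 3.64%. Ighv16, with 1 row, was the top segment of no called B cell, which allows up to 0.0420%, 0.0320% and 0.0404%, taken here and below as 3 counts of the total rather than from the exact interval. Leaving out hashtags C0303, C0304 and C0305 of the B6.SLE123 library, described next, gave 52.4% for its Ighv1 share. By B6.SLE123 hashtag from C0301 to C0306 the Ighv5 share was 7.26%, 8.28%, 9.99%, 11.68%, 16.01% and 7.29%, and the Ighv2 share 5.48%, 7.43%, 8.34%, 10.7%, 12.9% and 6.17%. For both families C0305 was the highest, and C0301 and C0306 were the lowest. The Ighv9 share was 6.69%, 5.74%, 3.997%, 2.78%, 0.239% and 5.77%, with C0305 the lowest.

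The B6.SLE123 hashtags fell apart in the segments they used, and this bears on every difference between the B6.SLE123 and control libraries below. Pseudogene-annotated rows were the top segment of 5 of the 7136 called control B cells (0.0701%) and of 17 of the 9364 called Ang II B cells (0.182%). In the B6.SLE123 library they led in 240 of 7424 (3.23%). By B6.SLE123 hashtag the share was 0.285% in C0301, 0.169% in C0302, 6.60% in C0303, 5.07% in C0304, 10.9% in C0305 and 0.199% in C0306. The 12 hashtags of the C57Bl/6 libraries were at 0% to 0.368%, so C0301, C0302 and C0306 lay within that range and the other 3 above it. Ighv1-14 was the most used of these rows, called in 137 B6.SLE123 B cells and in no cell of either C57Bl/6 library. Its share was 0.0712%, 0.0845%, 3.74%, 3.10%, 6.21% and 0.0663% from C0301 to C0306. Ighv1-83 (39 cells, against 1 control and 0 Ang II cells) was at 0%, 0.0845%, 0.956%, 1.06%, 1.55% and 0%. Ighv1-62 (25 cells against 0 and 0) was at 0%, 0%, 0.521%, 0.408%, 1.67% and 0%. The same 3 hashtags, C0303, C0304 and C0305, were the high ones each time.

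Common segments were missing in C0305, the hashtag with the highest share of these rows. Of the 36 segments at 1% or more of control B cells, 8 were the top segment of no cell in B6.SLE123 hashtag C0305, among 837 called B cells, which allows up to 0.358% for each. They were Ighv9-3, Ighv3-6, Ighv1-9, Ighv1-39, Ighv1-50, Ighv1-72, Ighv1-76 and Ighv1-85. In the other 17 hashtags no such segment was at 0. In all, 15 of the 36 were below 0.25 times their control share in C0305, against 1 in B6.SLE123 C0303 and 0 in the other 16 hashtags. Ighv1-26, the leading segment of the control library, was called in 1 of the 837 cells. The 15 segments, chosen on C0305, together held 1.20% of its B cells, 20.3% in C0303 and 19.9% in C0304, but 32.95%, 33.8% and 29.97% in C0301, C0302 and C0306, where the control hashtags were at 31.6% to 35.7% and the Ang II hashtags at 34.5% to 38.0%. They lie from 564.6 to 2570 kb from Ighj1. High in C0305 were Ighv7-3 (S107 family) at 7.65%, Ighv5-4 at 6.57% and Ighv2-6 at 3.82%, which were at 1.28% or less, 2.20% or less and 0.840% or less in every control hashtag. The effective number of segments was 32.6 in C0305, 56.0 in C0303 and 52.7 in C0304, and 41.5, 43.8 and 45.45 in C0301, C0302 and C0306.

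**Figure D2:**
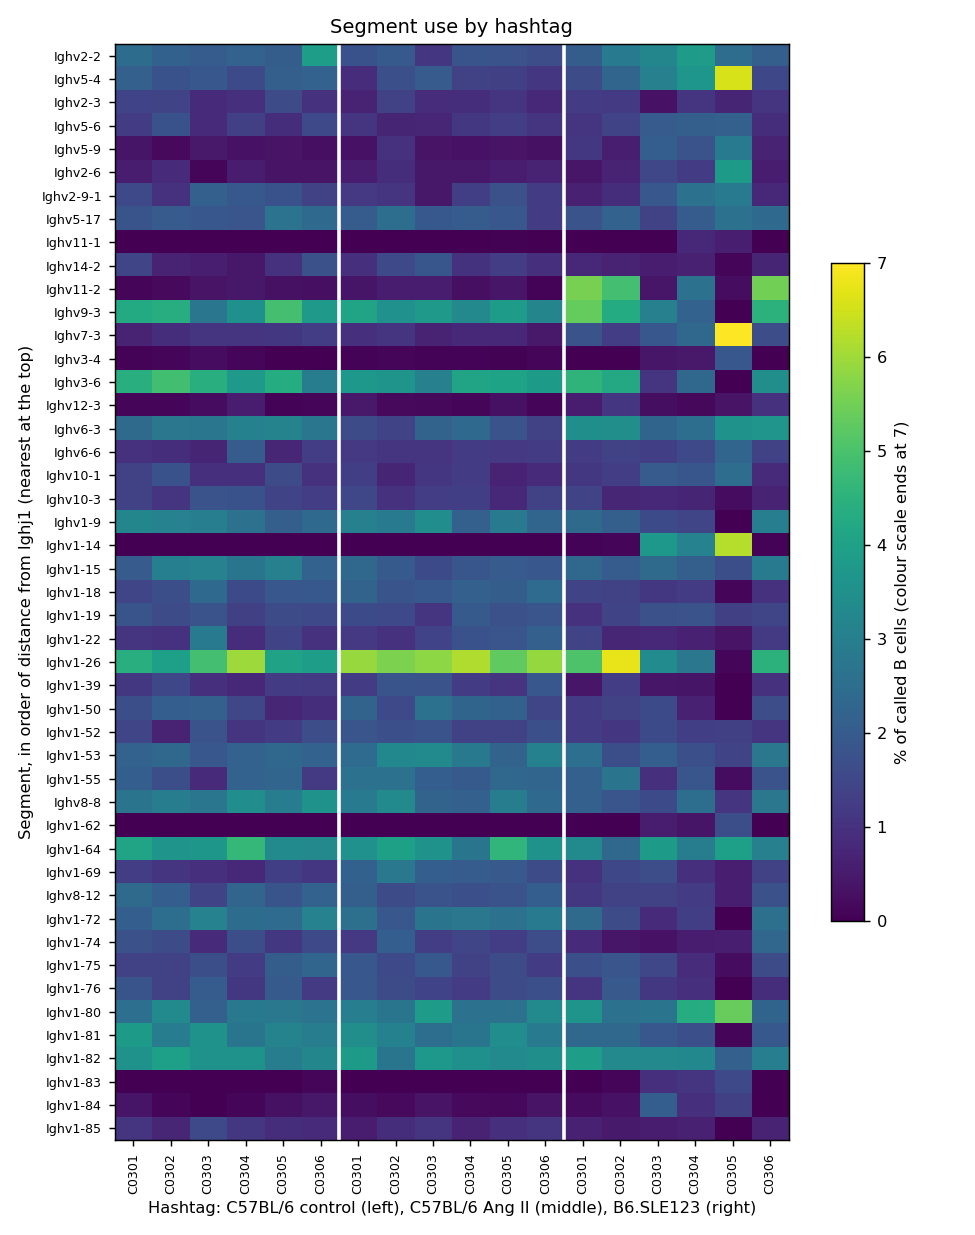
Share of called B cells (colour, %) for segments at 1% or more in the control library and 11 further segments named in the text (rows, nearest to Ighj1 at the top) in the 6 hashtags of each library (columns). The C57Bl/6 columns look alike, while in the B6.SLE123 block column C0305 is dark for rows such as Ighv9-3, Ighv3-6 and Ighv1-26 and bright for Ighv7-3, Ighv5-4 and Ighv1-14, with C0303 and C0304 between it and the rest.

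Genes beside the locus on chromosome 12 that were chosen after their values were seen followed the same split of hashtags. Tmem121, at chr12:113185930, was at 1.499, 3.69, 11.65, 8.46, 19.2 and 1.96 CPM in the B cells of B6.SLE123 C0301 to C0306, and at 0.392 to 1.49 CPM in the control hashtags. Tedc1 was at 4.07, 5.72, 12.9, 8.10, 14.0 and 4.64 CPM, against 3.59 to 5.14 in the control hashtags. Gpr132, a G protein-coupled receptor gene at chr12:112850873, ran the other way, at 47.1, 35.6, 21.4, 22.0, 6.33 and 38.0 CPM against 43.1 to 57.4. C0303, C0304 and C0305 were outside the control range for all 3 genes, and C0305 was the farthest. C0302 was also outside it for all 3, by less, as were C0301 and C0306 for Tmem121 and C0306 for Gpr132. Whether these hashtags differ from the others in genotype, and whether they mark the same condition, was not tested and is not given in the sources used here. Values by hashtag, or without these 3, stand beside many of the B6.SLE123 results, and a value given for the library alone includes them.

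**Figure D3:**
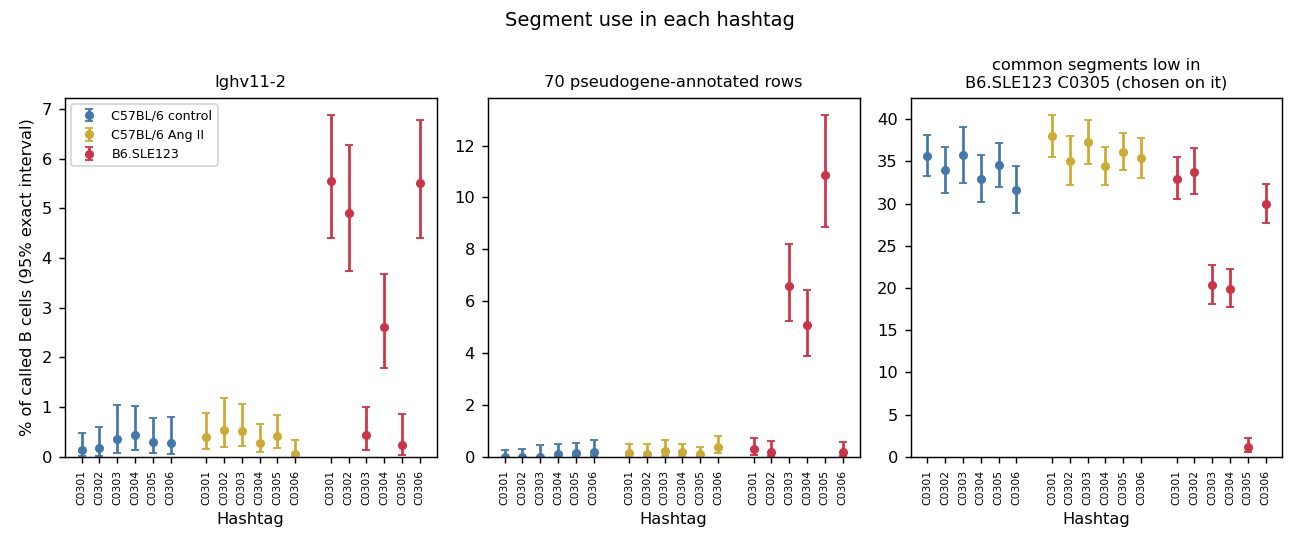
Share of called B cells (y axis, %, with exact 95% intervals) in each of the 18 hashtags (x axis) for Ighv11-2, for the 70 pseudogene-annotated rows summed, and for the 15 common segments that were low in B6.SLE123 C0305. Ighv11-2 is highest in C0301, C0302 and C0306 of the B6.SLE123 library at 4.90% to 5.55%, the pseudogene-annotated rows are highest in C0303, C0304 and C0305, and the third panel falls to 1.20% in C0305, the hashtag its segments were chosen on.

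Against the control library, 9 of the 68 segments with 50 or more called B cells over both libraries were at least 2-fold higher in the B6.SLE123 library by share of cells (Ighv5-9, Ighv2-6, Ighv2-9, Ighv11-2, Ighv7-3, Ighv12-3, Ighv1-14, Ighv1-20 and Ighv1-84) and 0 were at least 2-fold lower, with a median log2 ratio of -0.09. Without C0303, C0304 and C0305 the count higher was 2. The count lower rested on the setting, at 27 by summed UMIs, 5 after thinning and 6 without C0306. By summed UMIs the minimum was 50 UMIs in place of 50 cells, so the set of segments was not the same. As a background, CPM in B cells was used for all genes, on which 5.54% of 11544 genes were at least 2-fold higher and 1.82% at least 2-fold lower. On that scale 34 of 99 members were higher and 2, Ighv2-6 and Ighv8-8, were lower, both of them segments with most of their control UMIs in 1 cell. The median log2 ratio in CPM was 0.43 over the members and -0.04 over all genes tested. All 6 B6.SLE123 hashtags were above all 6 control hashtags in CPM for 9.55% of genes and below them for 10.3%, and for 7 and 1 of the 99 members, so no more of the members than of all genes separated in this way. Ighv1-81 was the member below, and Ighv2-4, Ighv5-9, Ighv5-16, Ighv7-1, Ighv1-14, Ighv1-62 and Ighv1-83 were those above. CPM also counts UMIs of cells with no call and background UMIs. By share of called cells Ighv1-62 was at 0% in C0301, C0302 and C0306, and Ighv1-83 at 0% in C0301 and C0306. Ighv1-14 was called in 1 cell each of C0301, C0302 and C0306.

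Ighv11-2 had the largest ratio among segments found in both libraries with 50 or more cells. It is known for an antibody specificity to phosphatidylcholine, carried by B-1 cells, the self-renewing innate-like B cells that make natural IgM. Control B cells with it numbered 19 of 7136 (0.266%, 0.160% to 0.416%) and Ang II B cells 36 of 9364 (0.3845%). B6.SLE123 B cells with it numbered 260 of 7424 (3.50%). This made it 13.15-fold higher in B6.SLE123 than in control B cells (log2 ratio 3.72, 3.05 to 4.47), and 4.30 on the log2 scale without C0303, C0304 and C0305. For Ang II the log2 ratio was 0.53, with an interval of -0.31 to 1.41 that spans 0. By B6.SLE123 hashtag the share was 5.55%, 4.90%, 0.434%, 2.61%, 0.239% and 5.504% from C0301 to C0306, against 0.134% to 0.440% in the control and 0.0614% to 0.543% in the Ang II hashtags. C0301, C0302, C0304 and C0306 lay above every C57Bl/6 hashtag, while C0303 and C0305 lay within their range. In C0301 and C0306 it was the most used segment of all.

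Ighv12-3, the other heavy chain segment known for phosphatidylcholine binding, was called in 13, 24 and 44 B cells (0.182%, 0.256% and 0.593%). Against control its log2 ratio in B6.SLE123 B cells was 1.70, with an interval of 0.78 to 2.72, and it was 2.23 without C0303, C0304 and C0305. In Ang II B cells it was 0.49, with an interval of -0.54 to 1.59. By B6.SLE123 hashtag it was at 0.569%, 1.10%, 0.261%, 0.163%, 0.358% and 0.995%, so C0301, C0302 and C0306 were again the highest, above the 0.0761% to 0.528% of the control hashtags. Ighv7-1, the S107 segment known from phosphorylcholine antibodies, was called in 12, 27 and 26 B cells, and its B6.SLE123 log2 ratio was 1.06, with an interval of 0.02 to 2.18. From C0301 to C0306 it was at 0.427%, 0.338%, 0.174%, 0.245%, 0.120% and 0.663%.

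The kappa chain, which was not used to call the heavy chain, was read in the same way from the Igkv rows. Of Ighv11-2 B cells with both chains called, 12 of 19, 29 of 33 and 236 of 257 had Igkv14-126 as their top kappa segment (63.2%, 87.9% and 91.8%), against 0.547%, 0.476% and 0.740% of B cells with neither Ighv11-2 nor Ighv12-3. In the B6.SLE123 hashtags with 30 or more such cells it was 72 of 77 in C0301, 53 of 58 in C0302, 26 of 30 in C0304 and 79 of 83 in C0306. Over all B6.SLE123 B cells with a kappa call Igkv14-126 was at 2.65%, against 4.05% of those with both chains called. In the control library these shares were 0.595% and 0.726%. Of Ighv12-3 B cells 5 of 13, 4 of 24 and 35 of 42 had Igkv4-91 (38.5%, 16.7% and 83.3%), against 0.593%, 0.781% and 0.992% of cells with neither heavy chain. These are the partners known from phosphatidylcholine-binding B-1 cells. Ighv11-1, which differs from Ighv11-2 at the 4 bases shown above, was called in 0 control, 1 Ang II and 15 B6.SLE123 B cells, and it was named after its values were seen. The 15 cells came from C0304 (10) and C0305 (5), and all 15 had Igkv14-126. In C0305, Igkv14-126 was the kappa segment of 8 cells with a called heavy chain, 5 of them with Ighv11-1 and 2 with Ighv11-2.

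**Figure D4:**
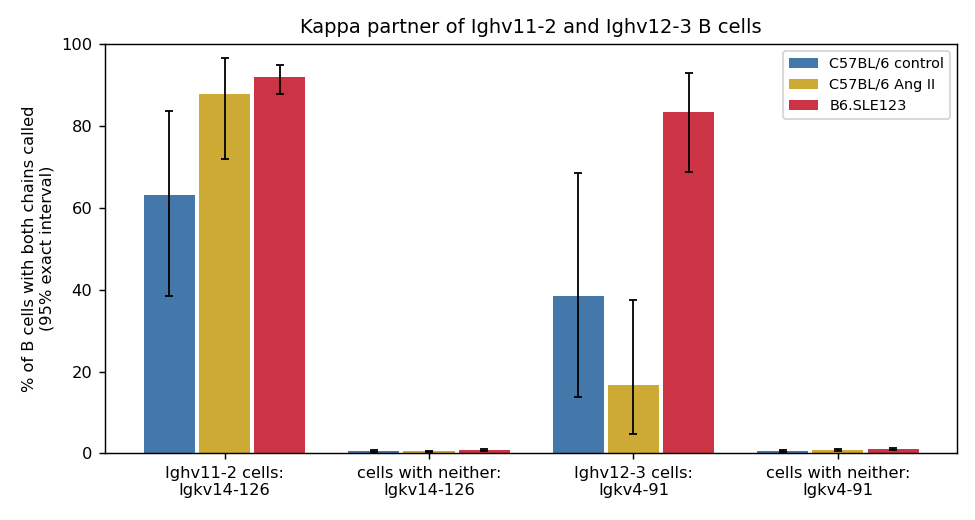
Share (y axis, %, bars with exact 95% intervals) of B cells with both chains called that had Igkv14-126 (left 2 groups of bars) or Igkv4-91 (right 2 groups), for Ighv11-2 cells, Ighv12-3 cells and cells with neither, in each library. Igkv14-126 is at 63.2% to 91.8% of Ighv11-2 cells and below 1% of cells with neither heavy chain.

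Ighv11-2 B cells also differed from other called B cells of their library in genes the rule did not use. Zbtb32, a transcription factor of B-1 cells, was at 133.9 CPM (111.5 to 159.4) in Ighv11-2 cells of the B6.SLE123 library against 21.4 CPM in its other called B cells, and at 49.8 (10.3 to 145.5, on 3 UMIs) against 2.72 CPM in the control library. Bhlhe41, a transcription factor needed for B-1a cells, was at 69.05 against 15.35 CPM, Cd9 at 184 against 59.1 CPM, and Cd5, the surface marker of B-1a cells, at 31.9 against 2.21 CPM in the B6.SLE123 library. Cr2, a complement receptor high on marginal zone B cells, was at 30.8 against 221 CPM. Of the other marginal zone genes of the list, Cd1d1 was at 19.1 against 36.45 CPM, S1pr3 at 19.1 (11.3 to 30.2) against 20.25 CPM and Dtx1 at 151.9 (128.0 to 178.9) against 125.4 CPM, so the list did not move one way. Fcer2a (CD23), a marker of follicular B cells, was at 7.44 against 113.6 CPM. In the control library the 19 Ighv11-2 cells had Cr2 at 182.5 against 459.9 CPM and Fcer2a at 182.5 against 295.7 CPM, so these were less far apart there. IgM was the top constant gene of 99.6% of Ighv11-2 cells with one called, against 82.2% of other called B cells. Ighv12-3 cells were alike in Zbtb32 (210 CPM), Bhlhe41 (101 CPM) and Cr2 (15.5 CPM), on 44 cells. Their Cd5, at 7.76 CPM, rests on 1 UMI, and its interval of 0.197 to 43.25 holds the 31.9 CPM of Ighv11-2 cells. Over all B cells, Zbtb32 was at 14.5 to 25.5 CPM in the 6 B6.SLE123 hashtags and at 1.09 to 2.94 CPM in the control hashtags, with C0303 and C0305 the lowest of the 6.

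Pairs of a heavy and a kappa segment in B cells were counted next, since cells of 1 clone share both. In the control library the most frequent pair was Ighv1-26 with Igkv1-117 in 21 of 6609 cells, near the 16.6 that the product of the single shares gives. Further down, Ighv6-3 with Igkv14-111 was found in 19 control cells, where the product gives 5.99, and Ighv3-6 with Igkv6-32 in 18, where it gives 5.68, both named after their counts were seen. In the B6.SLE123 library Ighv11-2 with Igkv14-126 led in 236 of 7056 cells, where that product gives 10.4, and Ighv12-3 with Igkv4-91 followed in 35, where it gives 0.607. Ighv1-26 with Igkv4-91 was found in 25 cells, where the product gives 4.16, from C0301 (9), C0302 (8), C0306 (6) and C0304 (2). Ighv1-74 with Igkv5-39 was found in 22 cells, where the product gives 1.105, and all 22 came from C0306. Both of these pairs were chosen after their counts were seen. All of their cells had IgM as the top constant gene, with Zbtb32 at 147 and 174 CPM.

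Among the other segments with large ratios, Ighv5-9 was called in 24 control and 105 B6.SLE123 B cells, a log2 ratio of 2.07 (1.42 to 2.78), with 2.085%, 1.797% and 2.87% in C0303, C0304 and C0305 and 1.14%, 0.591% and 0.663% in the other 3, and it was 1.305 without C0303, C0304 and C0305. Ighv1-84 had a log2 ratio of 1.61 (0.80 to 2.49) that rested on C0303, C0304 and C0305, and it was -0.52 without them. Ighv1-14, at 0 control cells, was at least 43.9-fold higher when the control count was set to a floor of 3 cells. Over the 68 segments compared, the intervals of 14 log2 ratios lay above 0 and of 18 below it. The lowest ratios were those of Ighv9-1 (-0.99), Ighv5-9-1 (-0.98), Ighv1-85 (-0.96), Ighv1-71 (-0.91) and Ighv1-39 (-0.83). Like the high ratios above, they were chosen on their values, so their intervals, each below 0, are not separate support. Without C0303, C0304 and C0305 these ratios were -0.40, -0.72, -0.79, -0.61 and -0.35. This order depended on the measure, since Ighv1-39 was at 0.49 when 5 UMIs were needed for a call and Ighv1-71 at 0.44 by summed UMIs. Ighv10-3 was at -0.81 (-1.29 to -0.33) and Ighv1-72 at -0.69 (-1.03 to -0.35). Of the leading control segments, Ighv3-6 was at -0.55 (-0.81 to -0.29), Ighv1-81 at -0.82 (-1.14 to -0.50) and Ighv1-26 at -0.18 (-0.41 to 0.05). Without the 3 hashtags Ighv3-6 was at -0.04 and Ighv1-26 at 0.22. Ighv3-6 was at 4.555%, 4.22%, 1.043%, 2.37%, 0% and 3.45% from C0301 to C0306, and Ighv1-81 at 2.35%, 2.365%, 1.91%, 1.72%, 0.1195% and 1.92%. Ighv10-3 was at 1.42%, 0.760%, 0.782%, 0.735%, 0.239% and 0.663%. Ighv1-72 was at 2.42%, 1.605%, 0.869%, 1.307%, 0% and 2.59%. C0305 was the lowest hashtag for all 4.

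Few segments stood apart between Ang II and control B cells. Of 67 segments with 50 or more cells, 0 were past 2-fold in either direction, and the intervals of 6 lay above and of 6 below a ratio of 1. The highest log2 ratio was that of Ighv1-69 at 0.89 (0.50 to 1.29), with 79 control and 192 Ang II cells. Ighv14-1 (0.69), Ighv1-61 (0.65), Ighv11-2 (0.53) and Ighv14-3 (0.48) followed. The lowest were Ighv1-71 at -0.70 (-1.25 to -0.16), Ighv6-3 at -0.63 (-0.93 to -0.32), Ighv5-4 at -0.62 (-0.98 to -0.27), Ighv2-2 at -0.51 (-0.83 to -0.20) and Ighv5-9-1 at -0.46. Ighv1-26 was at 0.35 (0.15 to 0.56) and Ighv1-53 at 0.35 (0.06 to 0.65). On CPM, 17 of 96 members were at least 2-fold higher and 2 lower, where 1.09% of all 11486 genes were higher and 0.845% lower, and the median log2 ratio was 0.71 over the members and 0.05 over all genes tested. All 6 Ang II hashtags were above all 6 control hashtags for 15 members and below them for 0, where 7.64% and 4.83% of all genes were. On this scale the members stood above all genes, while by share of called cells their median log2 ratio was 0.03.

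Genes of the recombination machinery and of later changes to the rearranged gene were set beside these values. Ung, a glycosylase that removes uracil from DNA, was at 6.57 CPM in control and 13.97 CPM in B6.SLE123 B cells. The surrogate light chain gene Vpreb1 was at 0.969 and 5.10 CPM, and Igll1, its partner, had 0 and 130 UMIs. Both of these lay in C0303, with Vpreb1 at 22.07 CPM and Igll1 at 21.89 CPM, while the other 5 B6.SLE123 hashtags had 0.554 to 1.71 and 0 CPM. Ung was at 9.64 to 19.4 CPM in the 6 B6.SLE123 hashtags, against 5.44 to 7.72 CPM in the control hashtags. All 3 were at least 2-fold higher in the B6.SLE123 library, as were 5.54% of all genes. The end-joining genes Xrcc5, Xrcc6, Lig4, Dclre1c, Prkdc and Xrcc4 had log2 ratios of -0.18 to 0.15. Nhej1, an end-joining gene under the minimum of 50 UMIs with 33 and 14, was at -1.43 (-2.44 to -0.49). Rag1 was at 0.826 and 1.20 CPM, and at 5.47 CPM in C0303. Of the constant genes, Ighg1, Ighg2c and Ighg3 were past 2-fold higher in B6.SLE123 B cells (1.005 against 100.7, 0.826 against 168.5 and 6.07 against 76.9 CPM), while Ighm was at 2359 against 1762 and Ighd at 788 against 453 CPM. From C0301 to C0306 Ighg1 was at 12.4, 174.6, 281.2, 15.8, 102.2 and 9.82 CPM, and Ighg2c at 15.2, 259.5, 334.4, 33.7, 34.15 and 218.2 CPM. Ighg3 was at 211.2, 23.8, 43.8, 41.05, 174.6 and 11.25 CPM. Every one of these lay above the control hashtags, which reached 2.74, 1.68 and 8.08 CPM, but the leading hashtag differed from gene to gene. All 6 B6.SLE123 hashtags were above all 6 control hashtags for 9.55% of all genes. Ighg2b, at 35.5 against 41.9 CPM, and Igha, at 7.61 against 11.3 CPM, were not past 2-fold. For Ighg2b the control value rested mostly on hashtag C0302, at 154.3 CPM, while the other control hashtags were at 3.64 to 16.1 CPM. The B6.SLE123 hashtags were at 12.7 to 82.45 CPM. Ighe, with 3 and 40 UMIs, was under the minimum of 50 UMIs.

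Plasma cells were numerous enough to describe by segment in the B6.SLE123 library alone. Of 290 such cells 283 had a called segment, with a median of 810 Ighv UMIs each, while the control library had 16 and the Ang II library 35, with medians of 390 and 1624. Ighv transcripts were 6.08%, 12.4% and 9.90% of all UMIs in plasma cells and 0.140%, 0.195% and 0.238% in B cells. The upper limit of 3500 genes removed 6, 6 and 24 further cells that met the plasma cell rule. In the control library Ighv1-82 led with 3 of 16 cells, followed by Ighv1-42 and Ighv1-64 with 2 each, and in the Ang II library Ighv1-26 led with 4 of 35. The 283 cells of the B6.SLE123 library used 72 segments, with an effective number of 50.

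The most used segments of B6.SLE123 plasma cells were Ighv1-53 (14 cells, 4.95%, 2.73% to 8.16%), Ighv1-83 and Ighv5-4 (12 each, 4.24%), and Ighv1-26, Ighv3-8 and Ighv4-1 (11 each, 3.89%). Against the B cells of the same library, Ighv1-83 was higher in plasma cells at a log2 ratio of 3.01 (1.94 to 3.98), Ighv4-1 at 2.82 (1.71 to 3.80), Ighv3-8 at 2.71 (1.61 to 3.69) and Ighv1-53 at 1.25 (0.34 to 2.04). Ighv11-2 was at -0.31 (-1.54 to 0.69), with 8 plasma cells, and Ighv1-26 at -0.04 (-1.06 to 0.82). These ratios are over the library, where C0303 gave 83 of the 283 called plasma cells and 1151 of the 7424 called B cells. Ratios by hashtag were not computed, and the intervals count each cell as independent, which cells of 1 clone are not. Ighv1-83, Ighv4-1, Ighv3-8 and Ighv1-53 were among the most used in these same plasma cells. That choice favours a ratio above 0, so their intervals are not separate support. Ighv12-3, at 0.593% of B cells, was the segment of 0 of 283 plasma cells, which allows up to 1.06%. Ighv1-53 plasma cells numbered 3, 5, 2, 0, 1 and 3 from C0301 to C0306, so they were spread over 5 hashtags. Ighv4-1 plasma cells, 11 of them, all came from C0303, and 9 of the 12 Ighv5-4 cells did. Ighv1-83 plasma cells numbered 3 in C0303, 1 in C0304 and 8 in C0305, and 0 in the other 3. Pseudogene-annotated rows made up 27 of the 283 cells (9.54%, 6.38% to 13.6%), with 10 of 83 in C0303, 3 of 43 in C0304, 14 of 41 in C0305 and 0 in C0301, C0302 and C0306, the same hashtags as in B cells.

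By hashtag, the leading plasma cell segment was Ighv1-18 with 3 of 25 cells in C0301 (Ighv1-53 also had 3), Ighv1-26 with 8 of 70 in C0302, Ighv4-1 with 11 of 83 in C0303, Ighv1-5 with 4 of 43 in C0304 (Ighv1-72 also had 4) and Ighv1-83 with 8 of 41 in C0305. C0306 had 19 called cells. The effective number of segments was 33.3, 24.6, 22.1, 43 and 17.45 from C0301 to C0305, while B cells of the same hashtags had 41.5, 43.8, 56.0, 52.7 and 32.6. Each of these hashtags thus had a lower number in plasma cells than in B cells, but on as few as 25 plasma cells and with no interval. Over the library the numbers were 50 in plasma cells and 52.7 in B cells.

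**Figure D5:**
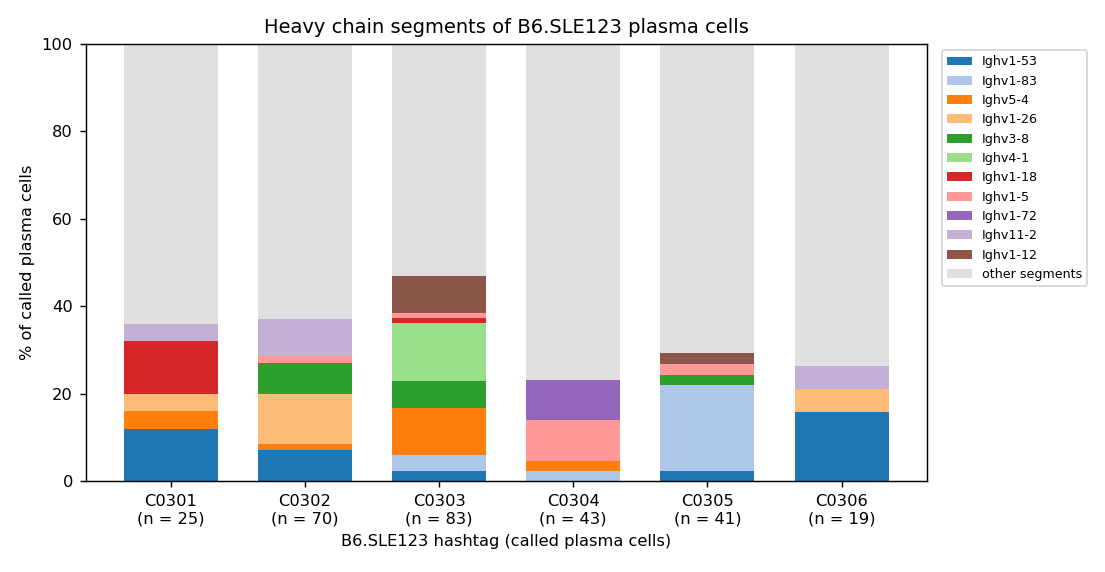
Share of called plasma cells (y axis, %) by heavy chain segment in the 6 hashtags of the B6.SLE123 library (x axis, with the number of cells); 11 segments are coloured and grey is the sum of the rest. The hashtags differ in their leading segments, with Ighv4-1 seen only in C0303 among these plasma cells and Ighv1-83 at 8 of 41 cells in C0305.

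Plasma cells within a hashtag shared both chains more often than plasma cells of different hashtags. Among the 279 B6.SLE123 plasma cells with both segments called, 156 of 7929 cell pairs within a hashtag (1.97%) had the same heavy and kappa segment, against 50 of 30852 pairs between hashtags (0.162%), and the product of the single probabilities within a hashtag was 0.183%. Without C0303, C0304 and C0305 the share within a hashtag was 1.455%. In B cells of that library the same values were 0.253% within and 0.146% between hashtags, and in control B cells 0.0524% and 0.0519%. Leaving out the cells that paired Ighv11-2 with Igkv14-126, they were 0.0816% and 0.0497% in B6.SLE123 B cells and 1.88% and 0.127% in its plasma cells. By hashtag, cells that shared their pair with another made up 20%, 42.9%, 43.4%, 22.0% and 39.0% of plasma cells from C0301 to C0305. The control and Ang II plasma cells gave 0 shared pairs among 38 and 94 cell pairs within a hashtag.

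The largest group was Ighv4-1 with Igkv6-23, 11 of 83 plasma cells in C0303. Their top constant gene was Ighm in 4, Ighg2c in 3, Ighg3 in 2, and Ighg1 and Ighg2b in 1 each. The same pair was found in 9 B6.SLE123 B cells, 7 of them in C0303, and in 0 B cells of either C57Bl/6 library. Those 7 B cells had 978.5 CPM of Mki67, a marker of dividing cells, against 108.6 CPM in all B6.SLE123 B cells. Ighv1-83 with Igkv2-109 was found in 6 of 41 plasma cells in C0305 and in 3 in C0303, so it was not limited to 1 hashtag. Ighv1-12 with Igkv8-24 was found in 6 plasma cells of C0303, all with Ighm as the top constant gene. Ighv11-2 with Igkv14-126 was found in 6 plasma cells of C0302 and in 2 of other hashtags, all 8 with Ighm. Ighv3-8 with Igkv19-93, in 4 plasma cells of C0302, had Ighg2c in all 4. Over all 289 B6.SLE123 plasma cells with a top constant gene this was Ighm in 46.7% and Ighg2c in 32.2%. The joining sequence between the segments is not part of the gene counts, so a shared pair of segments does not show that cells belong to 1 clone.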

How the data were processed

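Cells of 3 libraries of spleen, 1 per group, were analysed from the deposited raw UMI counts per gene and hashtag, which per the file headers the authors made with Cell Ranger 6.0.0, with mm10 given as the build in the submitters' processing notes. The authors' counts were used without change. The 5′ kit reads from the start of the transcript, and reads that fit several near-identical segments can be lost or placed on the wrong one, so closely related rows are uncertain. Members, gene lists and thresholds were chosen with earlier results of these data known.

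Kept barcodes had a mitochondrial share below 15% and between 200 and 3500 detected genes, the study's limits being read as genes. Hashtags were called above an Otsu threshold per library and barcodes with several removed. Doublets within 1 hashtag could not be seen. Segments were called from 2 or more UMIs with no tie. The effective number is 1 over the sum of n(n-1)/N(N-1). Shares have Clopper-Pearson, CPM Poisson and ratios conditional binomial 95% intervals. Where 1 count was 0, a floor of 3 counts over the library gave a bound, and the limit printed for a count of 0 is 3 counts of the total. UMI counts correct for copies made by PCR, and intervals cover counting error only.

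Segments named are the 10 most used by control B cells, the 5 highest and 5 lowest ratios per contrast, the 5 most used in plasma cells of each library, the leading plasma cell segment of hashtags with 20 or more called cells, and a fixed list. Others were named after their values were seen. The background is all genes with 50 or more UMIs over both libraries. Sequences and positions are from GENCODE vM21 (mm10), which matched 185 of 185 rows by gene ID. Python 3.11.15, numpy 2.4.6, scipy 1.17.1, pandas 2.3.3 and scikit-image 0.26.0 were used, and ratios were tested on simulated data. The alternatives were other cell and class rules, other limits for a call, summed UMIs, other minimum counts and leaving out each hashtag. Results that need certain genes are not reported here.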

Additional observations from a re-analysis of the deposited data

How the results depend on the processing

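Of 1055 values under 18 alternative settings and 18 leave-outs of 1 hashtag, 926 stayed within the interval of the reported value or, for counts, effective numbers and pair shares, within 1.5 times it, 123 moved further and 6 changed sign. Added after seeing the data were 3 settings: no upper gene limit, thinning before the call, and leaving out B6.SLE123 C0303, C0304 and C0305. No paired analysis was possible because each group is 1 library and hashtag numbers do not mark the same mice. The causes of these changes were not tested beyond what each setting removes.

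The Ighv1-39 log2 ratio of B6.SLE123 to control became 0.49, and that of Ighv5-4 -0.28, when 5 UMIs were needed for a call. Ighv5-4 was at -0.028 when the top segment had to hold 80% of a cell's Ighv UMIs and at -0.19 without C0303, C0304 and C0305, where Ighv1-84 was at -0.52. Ighv1-71 was at 0.44 by summed UMIs. The count of segments at least 2-fold higher and lower in B6.SLE123 B cells, 9 and 0 as reported, was most open to change. It was 18 and 27 by summed UMIs (6 and 3 for Ang II), 34 and 2 by CPM with or without immunoglobulin genes in the total (17 and 2 for Ang II), 14 and 1 from 20 cells, 19 and 5 from 1 cell (4 and 3 for Ang II), and 2 higher from 200 cells. By summed UMIs and by CPM the minimum was 50 UMIs in place of 50 cells, so the set of segments was not the same. The count was 5 and 5 after thinning, 3 and 2 from 5 UMIs (2 and 1 for Ang II), and 2 higher without C0303, C0304 and C0305. The count lower was 2 with calls from 1 UMI, with the 80% rule, with 5 Cd79a UMIs and with the study's limits read as UMIs, and 1 with plasma cells kept among B cells and with no upper gene limit.

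The Ighv1 share was 59.5% in control and 53.9% in B6.SLE123 B cells from 1 UMI. From 5 UMIs it was 42.85%, 54.5% and 42.0%, by summed UMIs 47.4%, 53.5% and 50.1%, and after thinning 52.95%, 55.95% and 45.96%. Pseudogene-annotated rows in B6.SLE123 B cells were 6.33% of summed UMIs and 0.261% of cells without the 3 hashtags. Without them Ighv1-53 was 9.48% of plasma cells and the plasma effective number 29.25. The share of B cells with an Ighv UMI was 83.1%, 95.9% and 87.1% with 5 Cd79a UMIs, 82.0% in control and 86.2% in B6.SLE123 with several hashtags kept, and 63.45%, 77.8% and 67.7% when thinned. With the study's limits read as UMIs it was 79.1%, 92.8% and 83.15%, the Ang II ratio of Ighv11-2 was -1.55, Ighv1-53 was 0% of plasma cells and 20% of plasma cell pairs within a hashtag matched.

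Leaving out 1 hashtag gave 0 to 6 segments lower in B6.SLE123 (6 without its C0306) and 5 to 9 higher (5 without its C0305). It gave 2.26% to 4.01% of its B cells on pseudogene-annotated rows and 50.5% to 52.5% on Ighv1. A segment was called in 55.1% of control and 82.5% of Ang II B cells, so the number of cells with no call differed between these libraries, and 16 and 35 plasma cells allow no comparison of segments there.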
